A study of Mus musculus with 6 samples.

Results

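The 10 genes described here encode the core of the endosomal sorting complex required for transport III (ESCRT-III), the VPS4 ATPases that take it apart, and LEMD2, which ties it to the nuclear envelope. They were chosen by gene name and are Chmp2a, Chmp2b, Chmp3, Chmp4b, Chmp4c, Chmp6, Chmp7, Vps4a, Vps4b and Lemd2. All 10 were found among the 55335 genes of the count table, and all 10 were among the 15881 genes that passed the filter on low counts. RNA sequencing compared wild-type mouse embryonic fibroblasts (MEFs) described as parental (Ctrl) with MEFs that had passed through 3 μm transwell pores and were collected after 15 h (Confine). The labels attach the transwell protocol to the Ctrl samples too, whereas the series design and the control label call them parental, and they are read that way here. Culture medium with serum is given for both groups. For its transwell assay with wider pores the study placed cells in serum-free medium above medium with serum, and whether this held for the 3 μm inserts is not given in the sources used here, so an effect of such a serum gradient and one of pore passage cannot be told apart. How the MEFs were derived is also not given. Each group was labelled with 3 replicates, but Confine replicates 1 and 2 held the same count in every gene, so they were counted as 1 library, called Confine 1 here, which leaves 3 Ctrl and 2 Confine libraries. Cells that crossed were compared with a parental population, so a change on crossing and a difference already present in the cells that crossed cannot be told apart.

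ESCRT-III proteins are small, soluble subunits that polymerize on membranes into filaments and spirals, and narrow a membrane neck from the inside until it closes. They are recruited by different adaptors to endosomes, to the midbody between dividing cells, to wounds of the plasma membrane and to the nuclear envelope. When a nucleus is squeezed through a narrow gap its envelope can tear, and ESCRT-III assembled by CHMP7 and LEMD2 is known for resealing such holes. VPS4 pulls subunits out of the polymer, which both remodels it and returns the subunits to the cytosol.

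Of the 10 genes, Chmp2a rose and Chmp6 fell in Confine, and the other 8 did not pass the test. Chmp2a, whose product caps the filament and recruits VPS4, was 1.6-fold higher (95% interval 1.24 to 2.05, 3 Ctrl against 2 Confine libraries). Chmp6, whose product starts the filament downstream of ESCRT-II, was at 0.643 of its Ctrl level (0.481 to 0.858). The nuclear envelope adaptors Chmp7 and Lemd2 and both ATPases Vps4a and Vps4b did not pass. A gene passed where the quasi-likelihood test of edgeR gave a p under 0.05 after the Benjamini-Hochberg correction for all genes tested. The count of 2 became 0 without Confine 3, 1 (Chmp2a) without Ctrl 1 or without Confine 1, and 5 without Ctrl 2, where Chmp2b, Chmp4b and Vps4a also passed. Leaving out a Confine library leaves a single one, taken to vary as the Ctrl libraries do, and the log2 fold changes without Confine 3 were 0.60 for Chmp2a and -0.61 for Chmp6, against 0.68 and -0.64 with all libraries.

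The share of the 10 genes that passed was near that of the whole table. It was 20%, whereas 23% of all genes tested did, 12.8% higher and 10.2% lower in Confine. None of the 10 (0) was also beyond a log2 fold change of 1.5 in either direction, a cutoff that 8% of all genes passed. DESeq2 and limma-voom also placed 0 of the 10 beyond that cutoff, and at an unadjusted p under 0.05 edgeR had the same count of 2 as after adjustment. In 4 of the 10 genes (40%) the Ctrl and Confine libraries did not overlap, with Confine above in 3 and below in 1, whereas the groups did not overlap in 49.5% of all genes tested. The median log2 fold change of the 10 was 0.05 and the median of its absolute size was 0.32, and over all genes tested these were -0.002 and 0.39. Scaling to library size alone, without the trimmed mean of M-values (TMM) factors, moved the median over all genes to -0.21 and that of the 10 to -0.15, so the directions below are relative to the typical gene.

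**Figure D1:**
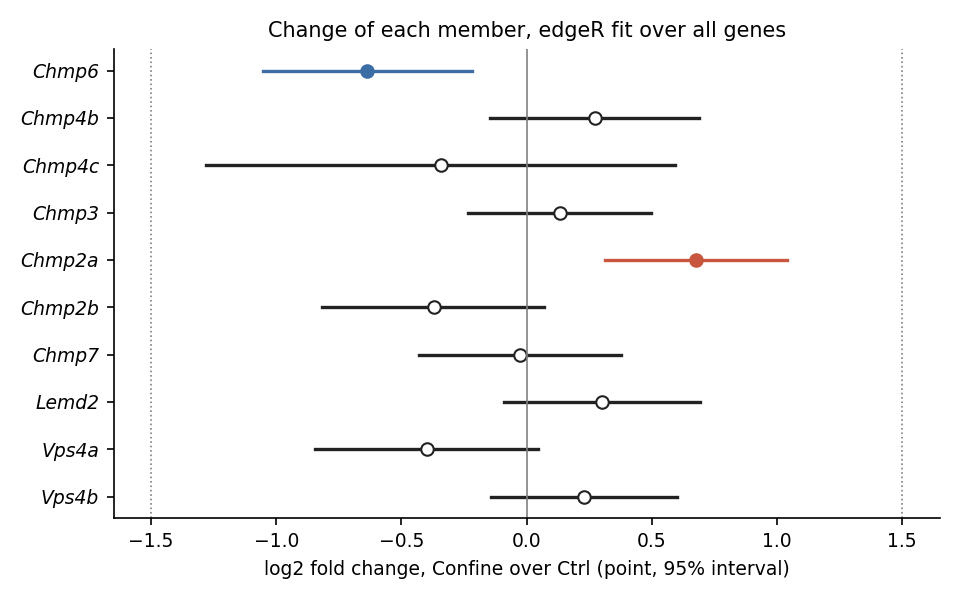
Log2 fold change of each of the 10 genes, Confine over Ctrl (horizontal axis), with its 95% interval from the edgeR fit over all genes. Filled points passed the test (Chmp2a, 0.68, and Chmp6, -0.64), open points did not, and the dotted lines mark a log2 fold change of 1.5 in each direction, which no interval reaches.

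The libraries held between 22287210 and 32537550 counted reads, so a floor of 3 counts lay at 0.101 to 0.128 CPM (counts divided by the TMM-normalized library size and brought to the usual common total). The 10 genes lie on 10 different chromosomes. Between 679 and 6147 reads were counted per library for 9 of them, and 23 to 44 for Chmp4c. Markers of the labelled cell type were mixed: Vim, Col1a1, Col1a2, Col3a1, Pdgfra and Pdgfrb were measured, 4 of these 6 passed the test as higher in Confine, and Thy1, Fap, Lum and Dcn did not pass the filter, Dcn reaching 27 counts in Confine 1 and the other 3 at most 2. Col1a1 lost its call without Ctrl 3 and with library size alone. Pdgfrb had a log2 fold change of -0.36 that did not pass. Leukocyte markers summed to 15.8 to 18.4 CPM in Ctrl and 36.3 to 41.7 CPM in Confine. Of the 11, Cd68, Csf1r and Cd14 rose and Lyz2 fell, 4 were at 0 counts in every library, and Ptprc, which defines leukocytes, had 2 counts in 1 library and 0 in the others. Csf1r exons overlap 873 bases of Hmgxb3 on the opposite strand, at 821.0 counts per library on average against 24.0 for Csf1r. The Csf1r value is therefore uncertain where the counting did not use strand. Csf1r lost the call without Confine 1, Confine 3, Ctrl 2 or Ctrl 3, and Cd14 without Confine 1. Epithelial and endothelial markers summed to at most 0.718 CPM in any library, and none of these passed the filter. The part of these marker differences in the results below was not tested. In bulk RNA, fewer cells that express a gene and less of its RNA per cell cannot be told apart.

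Sequence upstream of 6 of the 10 genes was matched by symbol in a RefSeq table on GRCm38.p6. It covers 7 windows of 250 bases, each ending at the start annotated there. The Chmp4b window and window 2 of Chmp3 lie past the GENCODE start of their gene, inside it, and are counted below. The windows of the paralogs Chmp2a and Chmp2b are shown because these are the pair whose ratio moved most between the groups. That of Chmp2a is chr7:13034808-13035027, on the minus strand and limited to the 220 bases before the GENCODE start, and that of Chmp2b is chr16:65562763-65563012, on the minus strand. Capitals mark GCGTG, 1 form of the hypoxia response element core, on either strand (CACGC on the other).
Chmp2a: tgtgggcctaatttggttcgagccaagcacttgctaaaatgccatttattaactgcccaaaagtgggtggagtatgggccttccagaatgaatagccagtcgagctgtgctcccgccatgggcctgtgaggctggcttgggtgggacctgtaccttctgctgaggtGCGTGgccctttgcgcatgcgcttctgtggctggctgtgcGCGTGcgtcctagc
Chmp2b: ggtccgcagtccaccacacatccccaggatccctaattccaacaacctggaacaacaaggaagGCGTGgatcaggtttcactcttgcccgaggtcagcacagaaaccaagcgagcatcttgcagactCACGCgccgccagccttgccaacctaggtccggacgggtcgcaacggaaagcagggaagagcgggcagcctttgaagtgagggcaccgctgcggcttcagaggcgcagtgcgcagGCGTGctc
The 250-base window of Chmp2a held 2 matches and that of Chmp2b 3. At least 1 match was present in 5 of the 7 windows, from 4 of the 6 genes, and in 28.2% of all 32851 windows of the same length in the table. The 5 include both windows that lie inside their gene. Neither the Chmp2a nor the Chmp2b window held CACGTG (an E-box, in 6.02% of all windows), ACGTG (16.6%, which every CACGTG also contains), CCGGAA (an ETS core, 12.0%), TATAAA (12.4%) or CCAAT (33.8%). Of the other windows, that of Vps4a held ACGTG, that of Chmp4b held CCGGAA, and window 2 of Chmp3 held CCGGAA and CCAAT. The bases G and C made up 58.0% of the Chmp2a window, with 10 CpG dinucleotides, and 61.2% of the Chmp2b window, with 17, against medians of 52.4% and 6 over all windows. These matches are letters in a window and were not tested against the expression values.

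Per length of exon, the 10 genes spanned a wide range of levels. Levels are given as TMM-normalized CPM per kilobase of exon (RPKM, mean ± SD, n = 3 for Ctrl and n = 2 for Confine), and only this scale is used to compare genes. Chmp2a was the highest in both groups, at 118 ± 6.86 in Ctrl and 188 ± 13.6 in Confine. In Ctrl it was followed by Chmp6 (29.3 ± 5.52), Chmp3 (26.3 ± 0.917), Chmp2b (20.9 ± 5.15), Chmp4b (18.0 ± 3.83), Vps4a (16.5 ± 3.38) and Lemd2 (11.8 ± 1.61). Chmp7 (7.95 ± 1.29), Vps4b (6.58 ± 0.329) and Chmp4c (0.141 ± 0.0553) were the lowest. Neighbours in this order overlapped in their library ranges, except Chmp2a and Chmp6, Lemd2 and Chmp7, and Vps4b and Chmp4c. In Confine, Chmp6 stood 4th rather than 2nd, at 18.8 ± 0.616, below Chmp3 (28.8 ± 1.05) and Chmp4b (21.7 ± 1.39), with no overlap between these 3. The remaining Confine levels were 16.2 ± 1.39 for Chmp2b, 14.6 ± 1.596 for Lemd2, 12.5 ± 2.55 for Vps4a, 7.81 ± 0.562 for Chmp7, 7.72 ± 0.480 for Vps4b and 0.110 ± 0.0105 for Chmp4c. Dividing by the longest transcript in place of all exons kept Chmp2a first and Chmp4c last and changed the order between them, with Chmp6 then 2nd in Ctrl and 3rd in Confine.

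**Figure D2:**
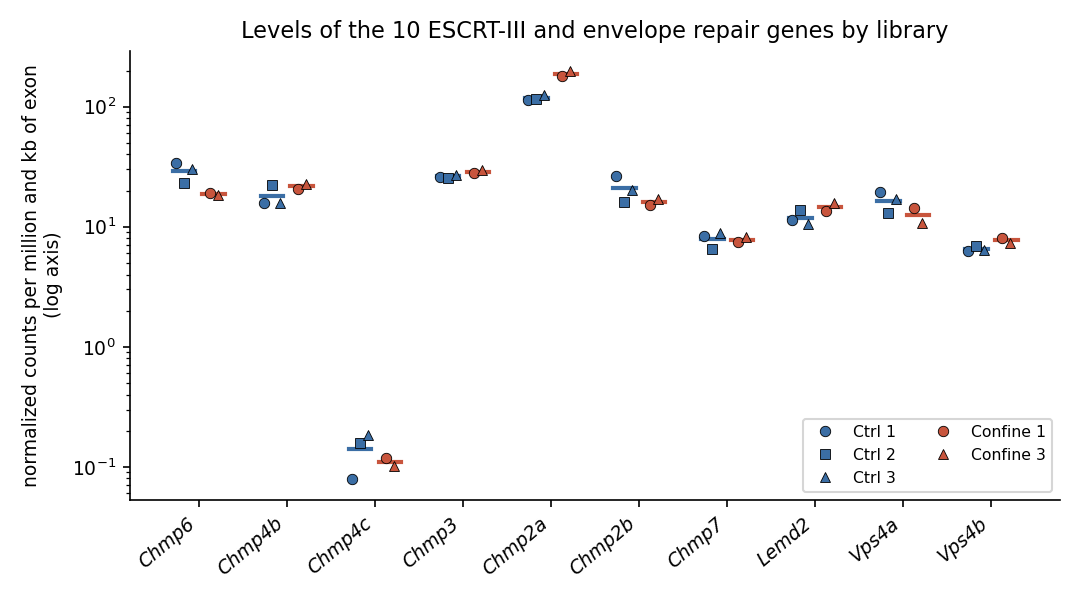
Level of each gene in each library (vertical axis, normalized CPM per kb of exon, log scale). Chmp6 and the other filament subunits come first, then Chmp7 and Lemd2, then the ATPases. Points are libraries and lines are group means. Chmp2a lies above all the others in every library (112.9 to 197.9), and Chmp4c lies far below them (0.0788 to 0.186).

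Within the summed RPKM of the 10 genes, Chmp2a took 43.2%, 47.5% and 48.0% across Ctrl, against 58.5% and 60.4% across Confine. The share of Chmp6 was 13.1%, 9.59% and 11.6% in Ctrl and 6.31% and 5.61% in Confine. Both shares separated the groups, and no test was run on them because they restate the 2 genes that passed. The shares of Chmp2b, Chmp3, Chmp7 and Vps4a were also lower in both Confine libraries than in any Ctrl library. A larger share of Chmp2a leaves less for the other genes. The share of Chmp3 was 10.0% to 10.5% in Ctrl and 9.0% to 9.18% in Confine, although its level was not lower. The sum itself was 261.2, 242.8 and 262.3 in Ctrl and 305.3 and 327.8 in Confine, so it was higher in both Confine libraries. Chmp2a alone was at 112.9, 115.3 and 125.8 in Ctrl and 178.7 and 197.9 in Confine. Without Chmp2a, the summed level of the remaining genes was not higher in Confine. With the longest transcript as the length, Chmp2a still took 40.5% to 44.9% in Ctrl and 55.5% to 57.3% in Confine.

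**Figure D3:**
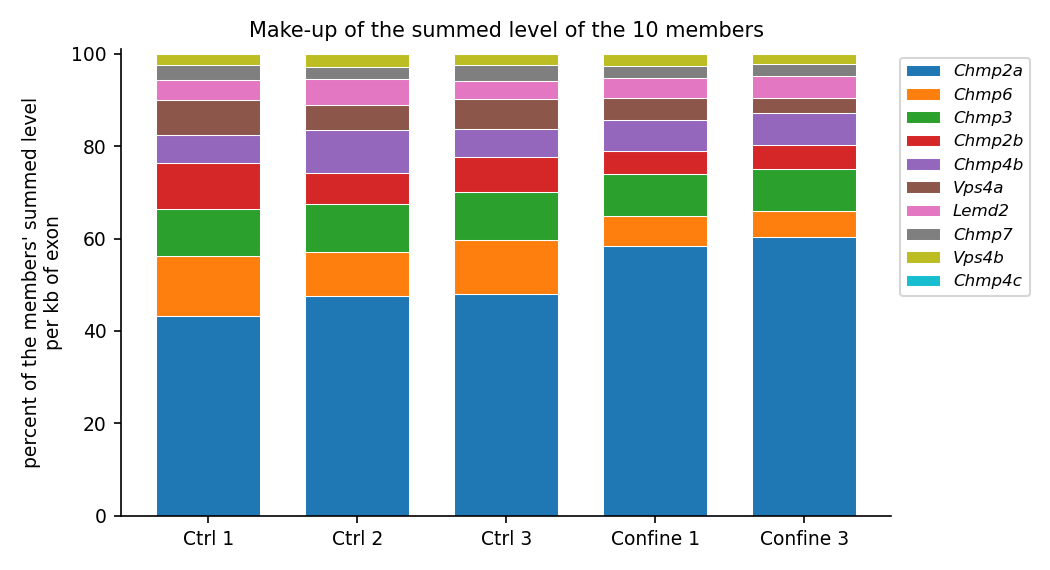
Share of each gene in the summed level per kb of exon of the 10 genes (vertical axis, percent), one bar per library. The Chmp2a share is 43.2% to 48.0% in Ctrl and 58.5% to 60.4% in Confine, and the Chmp6 share is lower in both Confine libraries than in any Ctrl library.

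CHMP6 is a membrane-anchored subunit that binds ESCRT-II and starts CHMP4 polymerization. Its gene lies at chr11:119913441-119919548 (mm10, plus strand). Chmp6 was counted 2405, 1499 and 1738 times in Ctrl and 1386 and 1126 times in Confine, which is 83.1, 56.7 and 73.9 CPM against 46.8 and 44.7 CPM. Both Confine libraries were below every Ctrl library, and the Ctrl libraries themselves spread widely (71.2 ± 13.4 CPM) while the Confine libraries were close (45.8 ± 1.498 CPM). The log2 fold change was -0.64 (SE 0.20, adjusted p = 0.0260). The call was lost without Ctrl 1 (-0.52, adjusted p = 0.132), without Confine 1 (-0.67, 0.142) and without Confine 3 (-0.61, 0.201), and over all alternatives the adjusted p ranged from 0.000694 to 0.228.

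CHMP4 proteins form the main filament. Chmp4b (chr2:154651705-154694785, plus strand) had 32.1, 45.5 and 31.9 CPM in Ctrl and 42.1 and 46.1 CPM in Confine. Ctrl 2 lay within the Confine range and the other two Ctrl libraries below it, so the groups overlapped. Its log2 fold change was 0.27 (SE 0.20, 95% interval -0.14 to 0.69, adjusted p = 0.362). Without Ctrl 2 it was 0.46, with an adjusted p of 0.0392, so the call on Chmp4b depended on that library. Chmp4c (chr3:10366907-10428856, plus strand), the paralog known for delaying abscission, was counted 23, 42 and 44 times in Ctrl and 35 and 26 times in Confine. The groups overlapped, and the interval was the widest of the 10 (log2 fold change -0.34, -1.28 to 0.59, adjusted p = 0.639). It leaves room for any change within these bounds. In addition, 330 bases of Chmp4c exons overlap the oppositely transcribed gene Snx16, at 458.4 counts per library on average against 34.0 for Chmp4c. The strand setting of the counting is not given in the sources used here, so reads of the pair may not have been told apart.

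CHMP3 and the CHMP2 proteins join the filament late and bind VPS4. Chmp3 (chr6:71543797-71582609, plus strand) had 85.1, 82.5 and 88.4 CPM in Ctrl and 91.1 and 95.9 CPM in Confine. Both Confine libraries were above every Ctrl library, but by little, and the log2 fold change of 0.13 (SE 0.17, interval -0.23 to 0.50) had an adjusted p of 0.646 and turned to -0.076 with library size alone.

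Chmp2a (chr7:13032010-13034807, minus strand) was counted 3796, 3544 and 3436 times in Ctrl and 6147 and 5792 times in Confine. This is 131.1, 133.9 and 146.1 CPM (137.1 ± 7.97) against 207.7 and 230.0 CPM (218.8 ± 15.8). The gap between the groups was wider than the range within either, and the log2 fold change was 0.68 (SE 0.17, adjusted p = 0.00772). It was positive in every alternative run, with adjusted p from 0.00101 to 0.108, but the call was lost without Confine 3 (0.60, adjusted p = 0.108) and with library size alone (0.47, 0.0535). Chmp2a shares at least 100 bases at 95% identity or more with Gm8185 only, which had at most 2 counts in any library.

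Chmp2b (chr16:65539128-65562726, minus strand), whose human counterpart is mutated in a familial form of frontotemporal dementia, had 50.9, 31.3 and 38.7 CPM in Ctrl and 29.3 and 33.0 CPM in Confine. Ctrl 2 lay between the 2 Confine libraries, so the groups overlapped, and Ctrl 1 was the highest. The log2 fold change was -0.37 (SE 0.21, interval -0.82 to 0.07, adjusted p = 0.229). It was -0.53 without Ctrl 2 (adjusted p = 0.0367) and -0.58 with library size alone (0.0479), and both of these passed.

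CHMP7 is an ESCRT-II and ESCRT-III hybrid protein that binds LEMD2, an inner nuclear membrane protein with a LEM domain, and together they bring ESCRT-III to the nuclear envelope. Chmp7 (chr14:69717000-69732541, minus strand) had 53.0, 40.9 and 56.4 CPM in Ctrl and 46.7 and 51.7 CPM in Confine. The Confine libraries fell inside the Ctrl range, and the log2 fold change was -0.03 (SE 0.19, adjusted p = 0.942), the smallest of the 10, with an interval from -0.43 to 0.38 that leaves room for a 1.3-fold change upward. Lemd2 (chr17:27189600-27204469, minus strand) had 55.0, 66.6 and 51.6 CPM in Ctrl and 65.7 and 76.7 CPM in Confine. Ctrl 2 lay between the 2 Confine libraries, and the log2 fold change was 0.30 (SE 0.19, interval -0.09 to 0.69, adjusted p = 0.272).

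VPS4A and VPS4B are closely related AAA ATPases that work as hexamers. Vps4a (chr8:107031222-107045755, plus strand) had 49.5, 32.5 and 42.8 CPM in Ctrl and 36.1 and 27.0 CPM in Confine. The groups overlapped at Ctrl 2 and Confine 1, and the log2 fold change was -0.40 (SE 0.21, interval -0.84 to 0.04, adjusted p = 0.193). It passed without Ctrl 2 (-0.55, adjusted p = 0.0328) and with library size alone (-0.61, 0.0371). Vps4b (chr1:106764071-106796728, minus strand) had 56.4, 61.9 and 57.5 CPM in Ctrl and 71.8 and 65.7 CPM in Confine. Both Confine libraries were above every Ctrl library, and the log2 fold change of 0.23 (SE 0.18, interval -0.14 to 0.60, adjusted p = 0.389) did not pass. A copy of Vps4b, Gm4939, aligned over 1329 bases but had at most 7 counts in any library. Summed over both genes, a quantity chosen after the values were seen, the libraries had 105.9, 94.5 and 100.3 CPM in Ctrl and 107.8 and 92.7 CPM in Confine. The means were 100.2 in both groups (SD 5.71 and 10.7). CPM does not correct for exon length (2522 bases for Vps4a, 8905 for Vps4b), so these equal means do not show an equal total of both. Per kb of exon, the mean of Vps4a was 16.5 in Ctrl and 12.5 in Confine, and that of Vps4b was 6.58 and 7.72.

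Because a ratio of a pair of genes within 1 library does not depend on the scaling of that library, 3 paralog pairs were compared as ratios of normalized counts per kb. Chmp2a was 4.27, 7.11 and 6.26 times as high as Chmp2b across Ctrl, and 11.8 and 11.5 times as high across Confine. Every Confine ratio lay above every Ctrl ratio, and the mean log2 ratio was 2.52 ± 0.38 in Ctrl and 3.54 ± 0.02 in Confine, a difference of 1.02 or 2.03-fold. The two-sided exact permutation p was 0.1, the smallest that 3 against 2 libraries allow, and 0.3 adjusted over the 3 pairs, so this design could not bring any pair under 0.05. Vps4a was 3.1, 1.86 and 2.63 times as high as Vps4b in Ctrl and 1.77 and 1.45 times in Confine. These ratios did not overlap either, although Ctrl 2 and Confine 1 were close, and the log2 difference was -0.62 (exact permutation p = 0.2, adjusted 0.3). The size of this ratio depends on the length used: per kb of the longest transcript, a length tried for these ratios after the data were seen, it was 1.86, 1.12 and 1.58 in Ctrl and 1.07 and 0.873 in Confine, so Vps4b was then the higher of the pair in Confine 3. The difference between the groups on the log2 scale does not depend on the length. Chmp4b was 84.1 to 196 times as high as Chmp4c in Ctrl and 174 and 218 times in Confine. These groups overlapped (log2 difference 0.56, exact permutation p = 0.4, adjusted 0.4), and the ratio rests on the 23 to 44 reads of Chmp4c.

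**Figure D4:**
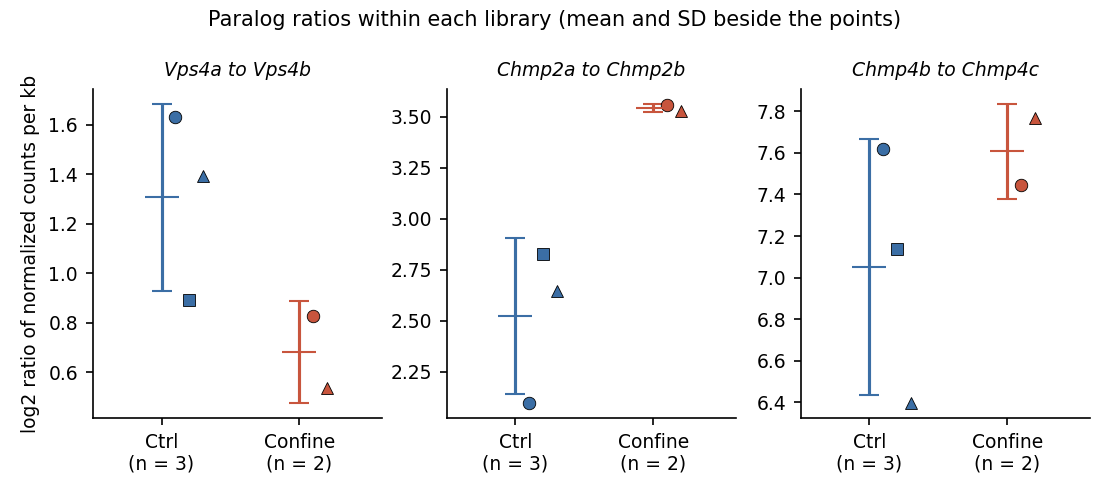
Log2 ratio of the normalized counts per kb of each paralog pair within each library (vertical axis), with the group mean and SD to the left of the library points. The Chmp2a to Chmp2b ratio lies between 2.095 and 2.829 in the 3 Ctrl libraries and at 3.56 and 3.53 in the 2 Confine libraries, and the vertical axes differ between panels.

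Genes that act before, beside or after ESCRT-III were read from 7 lists of related roles, with 69 of their genes tested. Of these, 9 rose, 17 fell and 43 did not pass, and 12 of the 17 that fell belong to a single list, that of abscission and the midbody. Over all genes tested, 12.8% rose, 10.2% fell and 49.5% had groups that did not overlap, and the counts of each list are to be read beside these shares. Without Confine 1, 17 genes passed in place of 26. The median log2 fold change of the 69 was 0.05. The lists are described by count only and were not tested as sets. As above, a fit without a Confine library rests on a single one, so a call lost there does not by itself show a smaller change, and the range of the log2 fold change on leaving out each library is given beside such calls.

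Among 9 other ESCRT-III subunits and VPS4 cofactors, 1 rose and 8 did not pass, with a median log2 fold change of 0.07 that became -0.14 with library size alone. The gene that rose was Chmp1b, a late subunit that recruits the microtubule-severing enzyme spastin, with 18.2, 20.0 and 18.6 CPM in Ctrl and 32.9 and 23.6 CPM in Confine. Confine 1 was well above Confine 3, and the log2 fold change of 0.58 (adjusted p = 0.0394) lost its call without Confine 1, without Ctrl 1 or without Ctrl 3 (0.32 to 0.80 on leaving out each library, adjusted p up to 0.463), and with library size alone.

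Among 18 genes of ESCRT-0, -I and -II and ALIX, the complexes that recruit ESCRT-III to endosomes and the midbody, 3 rose and 15 did not pass. The median was 0.16, or -0.05 with library size alone. Vps37a and Vps37d, alternative subunits of ESCRT-I, had log2 fold changes of 0.73 (adjusted p = 0.0156) and 0.97 (0.0490, not passed by DESeq2 or limma-voom), and Stam, an ESCRT-0 subunit that binds ubiquitin, had 0.56 (0.0425). Each of these 3 calls was lost on leaving out 3 or 4 of the 5 libraries in turn, Confine 1, Confine 3 and Ctrl 3 among them, and with library size alone. On leaving out each library the log2 fold change was 0.55 to 0.94 for Vps37a, 0.66 to 1.24 for Vps37d and 0.48 to 0.60 for Stam.

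Of 5 regulators of CHMP4 and CHMP7, Ulk3 rose and the other 4 had negative log2 fold changes that did not pass. ULK3 is a kinase that phosphorylates ESCRT-III subunits in the abscission checkpoint. Ulk3 was counted 242, 241 and 253 times in Ctrl and 1230 and 1252 times in Confine, or 8.36, 9.11 and 10.8 CPM against 41.6 and 49.7 CPM. The groups were far apart, with a 4.85-fold higher level in Confine (log2 fold change 2.28, SE 0.20, adjusted p = 1.09e-07), and the call held in all 15 alternatives that tested against no change. This was larger than the change of any of the 10 genes.

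Among 9 partners at the nuclear envelope, which include the DNA-crosslinking protein BAF, LEM-domain proteins and the lamins, 4 fell and 5 did not pass (median -0.42). Lmnb1, which encodes lamin B1, had 38.5, 51.5 and 29.4 CPM in Ctrl and 11.1 and 19.1 CPM in Confine. Both Confine libraries were below every Ctrl library, with a log2 fold change of -1.40 (SE 0.26, adjusted p = 0.000557) that passed in every alternative that tested against no change. Tmpo, which encodes the LEM-domain protein LAP2, fell by 0.85 on the log2 scale, Lbr, the lamin B receptor, by 0.80, and Lmnb2, lamin B2, by 0.67 (adjusted p = 0.00656, 0.00794 and 0.0275). All 3 lost the call without Confine 1, Lbr and Lmnb2 also without Confine 3, and Lmnb2 also without Ctrl 1 or Ctrl 2. On leaving out each library the log2 fold change stayed between -1.01 and -0.67 for Tmpo, -0.97 and -0.66 for Lbr and -0.82 and -0.54 for Lmnb2.

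Of the genes that respond to chromatin exposed in the cytosol, Cgas, which encodes the DNA sensor, fell from 7.26, 7.98 and 5.83 CPM in Ctrl to 3.92 and 3.42 CPM in Confine (log2 fold change -0.94, adjusted p = 0.0143). The groups did not overlap, but the call was lost without either Confine library, the log2 fold change lying between -1.07 and -0.84 on leaving out each library. Tmem173, its downstream adaptor STING, had a log2 fold change of 0.10 and did not pass. Trex1 was at 0 counts in every library, and 1147 bases of its exons overlap Atrip on the same strand, so reads from it may have been left uncounted or given to Atrip.

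Of 14 plasma membrane repair genes, 4 rose and 10 did not pass (median 0.38, or 0.18 with library size alone). Syt7, a calcium sensor of lysosome exocytosis, had 1.38, 2.34 and 0.680 CPM in Ctrl and 7.87 and 7.98 CPM in Confine (log2 fold change 2.42, SE 0.35, adjusted p = 5.64e-05). The membrane-binding annexins Anxa2 and Anxa5 rose 2.41-fold and 1.69-fold (adjusted p = 3.35e-05 and 0.00355). S100a10, the partner of annexin A2, rose 1.52-fold (adjusted p = 0.0234), and lost the call without Confine 3, without Ctrl 1, without Ctrl 3 and with library size alone (0.44 to 0.76 on the log2 scale on leaving out each library).

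All 12 genes of abscission and the midbody, the last bridge between dividing cells where ESCRT-III also acts, fell. Their summed level was 1193, 1088 and 1086 CPM in Ctrl and 314.6 and 439.8 CPM in Confine, and the groups did not overlap in any of the 12. The median log2 fold change was -1.65. The largest falls were those of Ect2, which acts at the cleavage furrow (-2.24), Kif20a, a mitotic kinesin (-2.19), Plk1, a mitotic kinase (-1.96), and Racgap1, a subunit of centralspindlin (-1.90), with adjusted p from 3.82e-06 to 3.03e-05. Kif20a exons overlap 1271 bases of Cdc23 on the opposite strand, so its value is uncertain where the counting did not use strand. Of the 12, Anln lost its call without Confine 1 (adjusted p = 0.0894, log2 fold change -1.54 to -0.82 on leaving out each library), and the other 11 passed in every alternative that tested against no change.

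**Figure D5:**
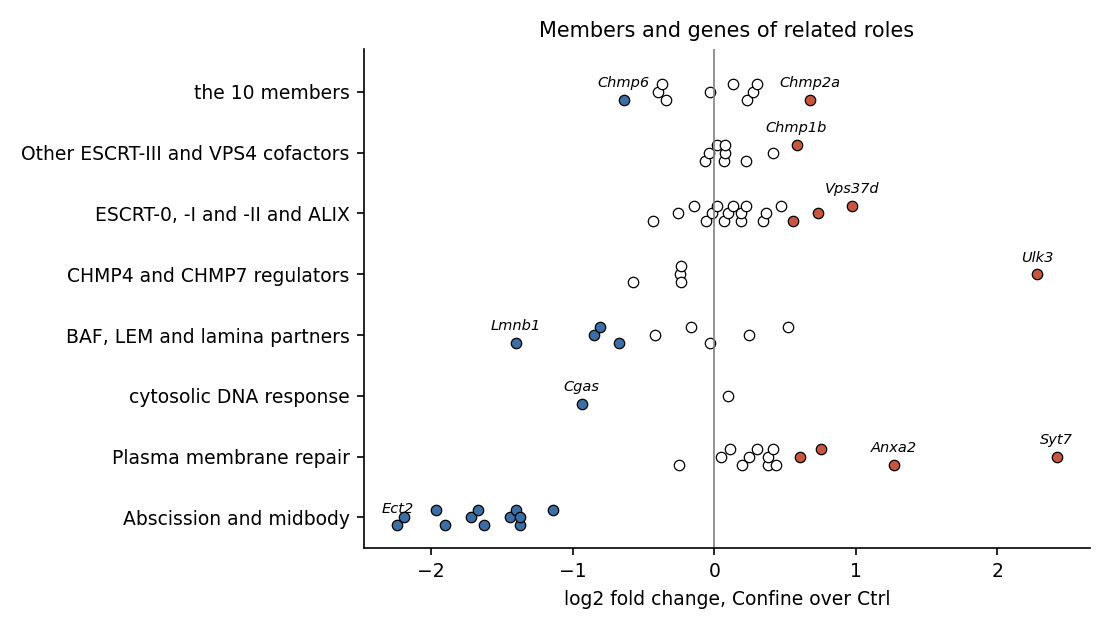
Log2 fold change, Confine over Ctrl (horizontal axis), of the 10 genes and of the tested genes of 7 lists of related roles (one row each; vertical offsets only separate points). Filled points passed the test, red higher and blue lower in Confine: all 12 abscission genes lie below -1.1, whereas the 10 genes lie between -0.64 and 0.68.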

How the data were processed

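Total RNA of MEFs was sequenced from polyA-selected, dUTP-stranded libraries. The deposited table holds raw counts of reads per gene, which the authors made, per the submitters' processing notes, with Trim Galore 0.6.10, HISAT2 2.1.0, SAMtools 1.5 and featureCounts on mm10. The annotation and strand setting are not given in the sources used here.

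Confine columns 1 and 2 agreed in all 55335 genes and entered once. Counts were filtered with filterByExpr, normalized by TMM and tested with edgeR 4.0.16 (quasi-likelihood, R 4.3.3, no block). SE and 95% intervals come from that fit. Ratios were tested by exact permutation after adding 0.5 to normalized counts. Gene positions and lengths are those of GENCODE M21, matched by gene ID without version (55154 genes). Copies were searched with blastn 2.17.0. The fit was tested on simulated data.

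Alternatives were DESeq2 1.42.0, limma-voom 3.58.1, other scalings and filters, a threshold test, a replicate block and leaving out each library. Named genes were the 10, plus up to 4 per related list with adjusted p under 0.05 and the largest absolute change, and cell type markers. Members and lists were chosen with earlier results of these data known. The labels do not say whether replicates came from separate cultures, so p-values measure a spread that may be technical. Reads carry no molecular identifiers, so limits from counts cover counting error only.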

Additional observations from a re-analysis of the deposited data

How the results depend on the processing

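Of the 10 genes, 2 passed in the reported fit and also with DESeq2, limma-voom, RLE and upper quartile scaling, either other filter on low counts and the identical columns counted as 2 samples, each time Chmp2a and Chmp6. With library size alone 3 passed (Chmp2b, Chmp6 and Vps4a, all lower), at log2 fold changes of -0.58 for Chmp2b and -0.61 for Vps4a, while Chmp2a was at 0.47 and Chmp3 turned to -0.076. Over all genes that scaling called 4249, 1444 of them higher, against 3654 and 2035. Against a log2 fold change of 0.5 (glmTreat), 0 of the 10 and 1973 of all genes passed.

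Leaving out each library in turn gave 0 to 5 of the 10 and 17 to 28 of the related genes (26 with all libraries), 2256 of all genes without Confine 1 and 2054 without Confine 3. The log2 fold changes ranged from 0.60 to 0.75 for Chmp2a, -0.53 to -0.17 for Chmp2b, 0.17 to 0.46 for Chmp4b, -0.78 to -0.52 for Chmp6, -0.62 to -0.21 for Vps4a and -0.157 to 0.048 for Chmp7, which was positive without Ctrl 1 (0.011), Ctrl 3 (0.047) or Confine 1 (0.048). Without 1 Confine library the other is taken to vary as Ctrl does.

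The labels give both groups replicate numbers and no shared batch, and the repeated library carries the numbers 1 and 2, so the replicate block was fitted with each. Deviations of same-numbered libraries from their group mean correlated at 0.15 and -0.03, or at -0.13 and -0.03. With 2 Confine libraries the deviation of each mirrors that of the other, so these values cannot decide whether the numbers pair the libraries. With the repeated library as number 1 the replicate block called 5 of the 10 genes (4933 of all genes), adding Chmp2b (-0.52), Chmp4b (0.46) and Vps4a (-0.56). As number 2 it called 0 of the 10 (2528 of all genes), with Chmp2a at 0.64, Chmp6 at -0.50 and Chmp7 at 0.032. By design, each block fit leaves 1 Ctrl library without a same-numbered Confine library, Ctrl 2 in the first and Ctrl 1 in the second. That library does not inform the difference between groups, so each block fit is close to leaving it out. Without Ctrl 2 the log2 fold changes were -0.53 for Chmp2b, 0.46 for Chmp4b and -0.55 for Vps4a. Without Ctrl 1 they were 0.64 for Chmp2a, -0.52 for Chmp6 and 0.011 for Chmp7. The cause of the other shifts was not tested. The 3 paralog differences kept their sign in all 8 alternatives each. Among these, the longest transcript as the length could not alter a difference between groups. Of the 10 genes, only Chmp4c had few reads, 23 to 44 per library.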
